A study of Mus musculus with 2 samples.

Results

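The DNA methylation machinery was described in the developing mouse kidney through 8 genes taken by name from the deposited gene tables: the maintenance pair Dnmt1 and Uhrf1, the de novo group Dnmt3a, Dnmt3b and Dnmt3l, and the oxidising enzymes Tet1, Tet2 and Tet3. They are 8 of 43346 genes in the tables, 21474 of which are annotated as protein-coding, and the rule that takes them uses no measured value. The tissue was whole kidney of B6NCrl embryos at embryonic day 14.5, with no treatment or genetic change named in the labels. Each of the 2 libraries held both kidneys of 1 embryo, was made from 10 ng of total RNA longer than 200 nt with spike-in RNAs added, and came from a collection 2 days apart from the other. The labels call the samples mixed in sex while describing 1 pup each. With 2 biological replicates of 1 group, no condition was compared and no test was possible.

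Maintenance methylation follows DNA replication: UHRF1 binds hemimethylated CpG sites and brings DNMT1 to them, and DNMT1 then copies the mark onto the new strand. DNMT3A and DNMT3B place methyl groups on unmethylated DNA, and DNMT3L is a catalytically inactive partner known mainly from germ cells. TET enzymes use oxygen and 2-oxoglutarate to oxidise methylated cytosine, and the oxidised bases are removed by TDG and base excision repair or lost as cells divide. In the forming kidney, dividing nephron progenitors, stroma, ureteric epithelium and vessels lie side by side. Whole tissue averages over all of them, so fewer cells of a type and less RNA per cell cannot be told apart.

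The libraries held 28429080 and 27758872 expected counts on genes in replicates 1 and 2, and spike-ins took 4.34% and 4.95% of all counts. Of 12 kidney markers, 12 reached 1 TPM in both libraries (TPM is a level per transcript length, scaled to a fixed sum per library; a gene with 1 TPM or more in both is called detected), and their summed level was 669 TPM in replicate 1 and 538 TPM in replicate 2. Cited1 and Wt1, both expressed in nephron progenitors, stood highest in that list, at 131 and 141 TPM for Cited1 and 129 and 81.5 TPM for Wt1. All 6 endothelial markers and 6 of 8 erythroid and blood markers also reached 1 TPM in both libraries, with sums of 322 and 303 TPM and of 89.8 and 76.3 TPM. The blood transcription factors Gata1 (0.38 and 0.40 TPM) and Klf1 (0.93 and 1.24 TPM) did not. How these cells share the 8 genes was not tested.

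Several of the 8 genes have alternative forms that differ in parts of known function, and the stretches that separate these forms are shown here. TET1 and one form of TET3 carry a CXXC zinc finger, a fold of 8 cysteines that binds unmethylated CpG. The coding strand of this stretch, read from GENCODE M21 transcripts on GRCm38, is given with the 8 cysteine codons in capitals, for Tet1 (codons 574 to 607 of Tet1-206, chr10:62878194-62878295, minus strand) and for Tet3 (codons 57 to 89 of Tet3-203, chr6:83454786-83454884, minus strand).
Tet1 CXXC: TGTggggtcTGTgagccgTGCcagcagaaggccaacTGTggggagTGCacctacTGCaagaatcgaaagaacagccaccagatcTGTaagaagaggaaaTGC
Tet3 CXXC: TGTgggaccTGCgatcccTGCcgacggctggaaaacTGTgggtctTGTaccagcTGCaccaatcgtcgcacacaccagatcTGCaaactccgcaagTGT
Each stretch lies within 1 coding exon. The spacing of cysteines that was searched for also occurs in DNMT1 (codons 656 to 694 of Dnmt1-201) and had no match in the 1912 codons of Tet2, whose CXXC part is known to lie in the separate gene Cxxc4.

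Dnmt3b transcripts differ by a pair of exons in the part coding for the catalytic domain, and transcripts without the pair are known to give a protein with little or no activity of its own. The pair is shown because the Dnmt3b results below turn on it, in lower case and on the plus strand of GRCm38: exon 22 of Dnmt3b-201 (chr2:153683608-153683677) and exon 23 (chr2:153684359-153684477).
Dnmt3b exon 22: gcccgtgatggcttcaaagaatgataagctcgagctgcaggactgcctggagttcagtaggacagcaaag
Dnmt3b exon 23: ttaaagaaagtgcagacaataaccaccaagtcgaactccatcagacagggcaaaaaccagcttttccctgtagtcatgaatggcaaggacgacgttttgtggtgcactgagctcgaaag
Together they are 189 nt, or 63 codons, so that leaving out both keeps the reading frame. A further alternative exon upstream, exon 11 (chr2:153670849-153670908), adds 60 nt.
Dnmt3b exon 11: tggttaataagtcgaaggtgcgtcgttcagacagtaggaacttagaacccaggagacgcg

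The start sites used by Dnmt1 and Dnmt3a also set which protein is made. The 250 bases before a start are given from RefSeq on GRCm38.p6 on the gene's strand, with each CG in capitals, for the somatic start of Dnmt1 (chr9:20952980-20953229, minus), the upstream start of Dnmt1 (chr9:20959889-20960138, minus), the long form of Dnmt3a (chr12:3806730-3806979, plus) and its internal start (chr12:3891494-3891743, plus).
Dnmt1 somatic start: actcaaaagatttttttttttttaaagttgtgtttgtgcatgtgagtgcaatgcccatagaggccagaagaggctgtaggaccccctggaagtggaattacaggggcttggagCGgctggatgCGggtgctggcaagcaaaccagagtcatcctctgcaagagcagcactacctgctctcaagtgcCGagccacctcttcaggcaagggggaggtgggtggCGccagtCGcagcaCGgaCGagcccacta
Dnmt1 upstream start: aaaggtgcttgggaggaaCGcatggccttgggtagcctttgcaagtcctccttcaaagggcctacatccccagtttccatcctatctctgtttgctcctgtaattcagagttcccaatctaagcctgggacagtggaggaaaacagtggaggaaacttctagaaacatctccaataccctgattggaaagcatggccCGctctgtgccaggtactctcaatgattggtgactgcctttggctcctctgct
Dnmt3a long form: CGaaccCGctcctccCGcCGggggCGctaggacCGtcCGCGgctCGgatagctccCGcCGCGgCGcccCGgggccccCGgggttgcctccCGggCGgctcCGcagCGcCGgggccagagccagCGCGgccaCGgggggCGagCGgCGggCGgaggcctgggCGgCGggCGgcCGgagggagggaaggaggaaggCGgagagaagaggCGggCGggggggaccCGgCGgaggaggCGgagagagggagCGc
Dnmt3a internal start: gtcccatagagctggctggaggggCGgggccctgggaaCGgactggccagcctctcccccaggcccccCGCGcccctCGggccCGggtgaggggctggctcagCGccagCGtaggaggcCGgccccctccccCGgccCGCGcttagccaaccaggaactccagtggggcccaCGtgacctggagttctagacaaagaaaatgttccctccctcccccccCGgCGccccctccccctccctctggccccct
These 4 stretches hold 7, 2, 38 and 15 CG pairs in the order shown. Across 32851 RefSeq promoters the median was 6 in the same length, and 46.3%, 81.2%, 1.88% and 27.3% of promoters held at least as many. The third Dnmt1 start, of Dnmt1-203, lies 356 nt downstream of the somatic start. Its stretch, not shown, holds 26 CG pairs, and 9.59% of promoters held at least as many. The RefSeq start behind the Dnmt3a long form stretch, at 3806980, matches no tabled transcript, and Dnmt3a-201 begins at 3807030.

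Starts of Tet2 (chr3:133544391-133544640, minus) and Dnmt3l (Dnmt3l-201, chr10:78049592-78049841, plus) are shown as well, because these genes had the lowest levels of the TET and DNMT groups and their starts lie far apart in CG content.
Tet2 start: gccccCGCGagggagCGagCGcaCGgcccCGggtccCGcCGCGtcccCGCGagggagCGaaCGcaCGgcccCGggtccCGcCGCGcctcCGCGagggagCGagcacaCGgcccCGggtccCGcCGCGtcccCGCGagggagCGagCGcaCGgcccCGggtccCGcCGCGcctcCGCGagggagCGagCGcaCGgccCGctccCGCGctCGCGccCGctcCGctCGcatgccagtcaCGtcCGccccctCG
Dnmt3l start: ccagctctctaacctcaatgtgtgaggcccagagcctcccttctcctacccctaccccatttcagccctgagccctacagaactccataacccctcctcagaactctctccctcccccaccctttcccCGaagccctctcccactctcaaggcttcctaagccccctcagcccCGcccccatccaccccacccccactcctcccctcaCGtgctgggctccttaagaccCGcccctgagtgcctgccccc
The Tet2 stretch holds 51 CG pairs and 83.6% G or C, and 0.0670% of promoters held as many pairs. The Dnmt3l stretch holds 4 pairs, as do or exceed 62.2% of promoters. The promoters of Dnmt3b (21 pairs), Tet3 (17), Tet1 (15) and Uhrf1 (10 at its upstream and 30 at its downstream start) lay above the median too. CG content is a property of the sequence, and no methylation was measured here.

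Of the 8 genes, 7 reached 1 TPM in both libraries, against 59.0% of all protein-coding genes. The exception was Dnmt3l. From high to low, mean levels were 95.4 ± 24.8 TPM for Uhrf1, 54.0 ± 15.7 for Dnmt3a, 46.7 ± 12.2 for Dnmt1, 36.4 ± 1.64 for Tet3, 19.5 ± 3.56 for Tet1, 12.9 ± 4.19 for Dnmt3b, 6.68 ± 1.07 for Tet2 and 0.405 ± 0.120 for Dnmt3l (SD, n = 2). The median over all protein-coding genes was 4.2 TPM, and 18.3 TPM over the 12669 that reached the floor. Dnmt3a and Dnmt1 overlapped between libraries, and the gap between Dnmt1 and Tet3 was smaller than the SD of Dnmt1. The other neighbours in this order did not overlap. The places of Tet1 above Dnmt3b and of Dnmt3a above Dnmt1 held only over all transcripts. On complete coding transcripts Tet1 had 6.87 and 5.32 TPM and Dnmt3b had 14.6 and 9.42 TPM. Dnmt3a had 49.98 and 31.67 TPM on that measure, below Dnmt1 in both libraries (55.34 and 38.02 TPM). Levels of Dnmt3a and Dnmt1 still overlapped between libraries. Complete coding Tet3 had 20.77 and 16.3 TPM, so its gap to Dnmt1 was then larger than the SD of Dnmt1.

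**Figure D1:**
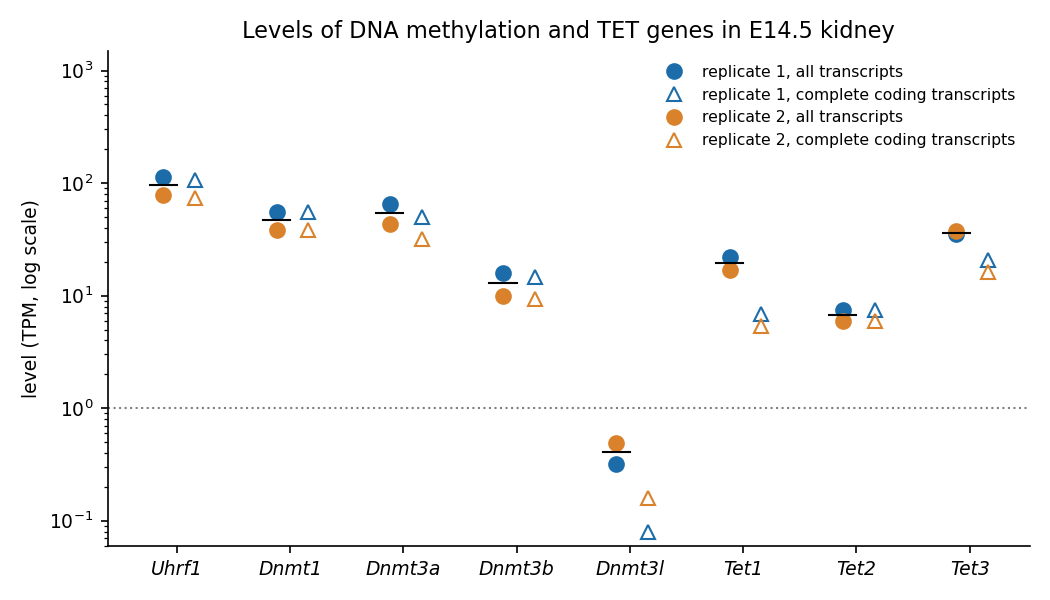
Level of each gene in TPM on a log scale, with filled circles for the sum over all its transcripts, open triangles for complete protein-coding transcripts, short lines for the mean of 2 libraries and a dotted line at the detection floor of 1 TPM. Uhrf1 is highest and Dnmt3l lies under the floor, while the triangles of Tet1 and Tet3 fall well below their circles.

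Uhrf1 (chr17:56303321-56323486) had 113 TPM in replicate 1 and 77.9 TPM in replicate 2, above 94.0% and 92.1% of protein-coding genes. Dnmt1 (chr9:20907209-20959888) had 55.3 and 38.0 TPM, from 5669 and 4498 counts. Both genes of the maintenance pair were thus higher in TPM in replicate 1. The same held for 77.0% of protein-coding genes with 5 TPM or more in the higher library. The ratio of the pair was steadier than either level: Uhrf1 stood 2.04-fold above Dnmt1 in replicate 1 and 2.05-fold in replicate 2. Steadiness was not particular to this pair. Dnmt3a over Dnmt1 was 1.18 and 1.13, and Tet1 over Tet2 was 2.97 and 2.87. Ratios of Tet3 moved more, at 4.74 and 6.34 over Tet2 and 1.60 and 2.21 over Tet1.

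The partners of maintenance methylation were present throughout, with 11 of 11 listed genes at 1 TPM or more in both libraries and a median of 93.1 TPM. The share to set beside this list and those below is the 59.0% of all protein-coding genes that reached this floor. Rbbp4, a histone chaperone, had 338 and 308 TPM, and Pcna, the replication clamp that DNMT1 binds, had 267 and 286 TPM. The histone deacetylases Hdac2 (227 and 195 TPM) and Hdac1 (209 and 184 TPM) followed. Usp7, a deubiquitinase that binds both DNMT1 and UHRF1, had 48.2 and 34.6 TPM. Cdca7l, a relative of the HELLS partner CDCA7, had 54.4 and 26.5 TPM and was the only gene of this list at least 2-fold apart between libraries. Genes of proliferating cells stood high beside them, with 15 of 15 detected, a median of 142 TPM, Cdk1 at 426 and 433 TPM and Top2a at 235 and 213 TPM. The lowest of these were the polymerase subunit Pola1 (19.6 and 15.8 TPM) and the factor E2f1 (7.85 and 8.47 TPM).

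Dnmt1 was described by 3 transcripts. Dnmt1-201, which begins at the somatic first exon and codes for 1620 codons, had 38.6 and 26.0 TPM in replicates 1 and 2, or 69.7% and 68.3% of the gene. Dnmt1-202, which begins 6909 nt upstream and codes for 1501 codons, had 15.5 and 10.8 TPM, or 27.9% and 28.5% (28.2 ± 0.407%, SD, n = 2). Its start is the one known from oocytes, where it gives a protein with a shorter N-terminus, and its coding length is 119 codons less. Dnmt1-203, from the downstream start known from spermatocytes, took 2.40% and 3.24%. The upstream share was thus alike in both libraries.

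The tables placed 1555 and 1257 counts on Dnmt1-202, but only its first exon of 156 nt is free of other Dnmt1 transcripts. Dnmt1-201 and Dnmt1-202 also differ by 3 nt at an internal exon in the M21 annotation, where one ends at position 20940554 and the other at 20940551 of chromosome 9. Reads over that exon end can therefore enter the split as well as reads over the first exons. The tables do not show which bases carried the counts, so use of the upstream start itself cannot be told apart from use of the internal exon end. In all 3 Dnmt1 transcripts the length in the tables differed from that in M21, which was so for none of the other 56 transcripts of the 8 genes.

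Uhrf1 starts were split as well. Transcripts from the downstream start, led by Uhrf1-204 (782 codons, 55.9 and 46.5 TPM), took 54.2% and 61.6% of the gene in replicates 1 and 2. Those from the upstream start took 39.8% and 32.7%, with Uhrf1-203 (774 codons) at 27.93 and 21.97 TPM and Uhrf1-201 at 17.0 and 3.47 TPM. The starts of Uhrf1-203 and Uhrf1-204 lie 948 nt apart. The downstream start held the larger share in both libraries. Uhrf1-203 and Uhrf1-204 have no bases that other Uhrf1 transcripts lack, and Uhrf1-201 and Uhrf1-202 have 79 and 35 nt. This split therefore depends in part on the authors' allocation of shared reads.

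Among the de novo enzymes Dnmt3a was the more abundant. Dnmt3a (chr12:3806007-3914443) had 65.1 and 42.9 TPM in replicates 1 and 2, from 6986 and 5743 counts. Dnmt3b (chr2:153649450-153687730) had 15.9 and 9.95 TPM, from 1108 and 847 counts. Dnmt3a therefore stood 4.10-fold above Dnmt3b in replicate 1 and 4.31-fold in replicate 2.

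Dnmt3l (chr10:78041947-78063622) had 4 counts in replicate 1 and 6 in replicate 2, or 0.32 and 0.49 TPM, where 3 counts, the limit that a count of 0 allows, amount to 0.243 TPM in either library. Its level thus lay near that limit in both libraries. The ratio of its CPM between libraries was 0.651 with a 95% interval of 0.135 to 2.75, so no difference was detectable at this depth. The deposited posterior mean estimates put Dnmt3l at 1.09 and 1.08 TPM, just above the floor. Those estimates also give TPM to transcripts with 0 counts: Dnmt3l-204, with 0 counts in both libraries, held 0.45 and 0.39 TPM. Passing the floor on that estimate is therefore not a sign of more reads. Dnmt3c, a rodent gene copied from Dnmt3b and known from male germ cells, had 0 counts in both libraries.

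Dnmt3a was listed with a long and a short form. The long form (908 codons) held 28.4 and 17.2 TPM in replicates 1 and 2, or 43.6% and 40.0% of the gene. The short form (689 codons), which begins 84714 nt downstream at the internal start and lacks the first 219 codons by coding length, held 21.6 and 14.5 TPM, or 33.2% and 33.8% (33.5 ± 0.435%, SD, n = 2). It is the form known from embryonic stem cells, where it is called DNMT3A2. Of the complete coding forms alone the short form made up 43.3% and 45.8%.

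By expected counts the long form took 75.9% and 64.5% of Dnmt3a and the short form 19.1% and 30.3%. The units differ because TPM divides by length: Dnmt3a-201 is 9685 nt with 6699 nt after its last coding codon, while the short transcripts are 5424 nt (Dnmt3a-203) and 2328 nt (Dnmt3a-205), with 3210 and 98 nt after theirs. The libraries also placed the short form on different transcripts. Dnmt3a-203 had 6.49 TPM in replicate 1 and 14.5 TPM in replicate 2, and Dnmt3a-205 had 15.1 and 0 TPM. These short transcripts hold 689 codons each and begin close together, at 3891744 (Dnmt3a-203) and 3891728 (Dnmt3a-205) of chromosome 12. They differ in exon number (19 and 18) and in their ends, and their sum was used. Dnmt3a-203 has no bases that other Dnmt3a transcripts lack, and Dnmt3a-205 has 16 nt. Their separate levels therefore depend in part on the authors' allocation of shared reads. Non-coding and incomplete transcripts held 23.2% and 26.2% of the gene's TPM but 5.00% and 5.23% of its counts, and the largest of them was Dnmt3a-202, which keeps an intron, at 7.20 and 5.57 TPM.

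In Dnmt3b the form without exons 22 and 23 was the larger one. Dnmt3b-206 (776 codons), which lacks the pair and also exon 11, had 8.57 and 6.24 TPM in replicates 1 and 2, or 53.9% and 62.8% of the gene, and no other transcript without the pair had any TPM. Transcripts with both exons had 5.99 and 3.18 TPM, or 37.7% and 32.0% (34.8 ± 4.03%, SD, n = 2). Among complete coding transcripts 58.9% and 66.2% lacked the pair. By expected counts the share with the pair was 40.4% and 35.2%, close to that by TPM.

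The transcripts that keep the pair were spread over 3 annotated forms. Dnmt3b-201 (860 codons) had 1.12 and 2.05 TPM, Dnmt3b-207 (860 codons) had 2.78 and 0 TPM, and Dnmt3b-209 (839 codons, without exon 11) had 2.09 and 1.13 TPM. Exon 11 was present in 26.8% and 21.8% of complete coding Dnmt3b, each time together with the pair. None of the named Dnmt3b transcripts has bases of its own. These shares rest on reads that cross exon joins, on reads in exons of only some forms, and on the authors' allocation of shared reads. Exons 11, 22 and 23 are such exons.

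**Figure D2:**
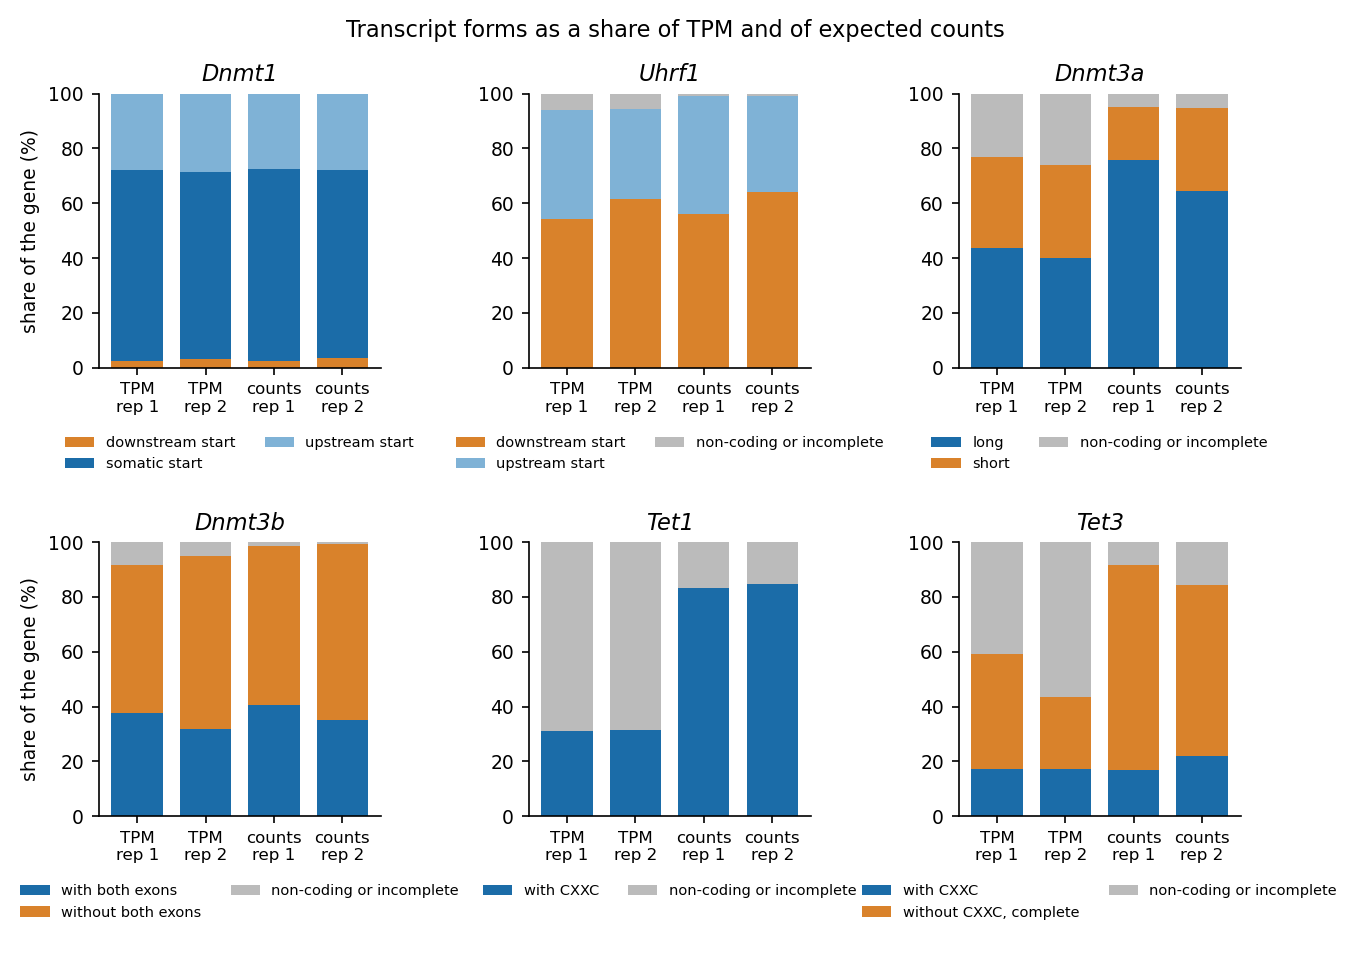
Stacked bars give the share of each gene, in percent, held by its forms in replicates 1 and 2, first by TPM and then by expected counts. Shares of Dnmt1, Uhrf1 and Dnmt3b are alike in both units, whereas non-coding or incomplete transcripts (grey) hold 68.8% and 68.7% of Tet1 by TPM but 16.7% and 15.4% by counts.

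Factors that direct or permit de novo methylation were all detected, 11 of 11 with a median of 33.5 TPM. The histone methyltransferases Ehmt2 (61.6 and 53.6 TPM), Ehmt1 (72.3 and 41.5 TPM) and Suv39h1 (62.2 and 38.9 TPM) were highest, with Smchd1, a factor of the inactive X chromosome, at 54.9 and 45.3 TPM. Setd2, which writes the histone mark that DNMT3 proteins bind over gene bodies, had 27.1 and 11.9 TPM and was at least 2-fold apart between libraries. The lowest were Morc3 (21.1 and 12.9 TPM) and Kdm1b (11.1 and 7.52 TPM), a histone demethylase needed for imprints in mouse oocytes.

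The imprint and KRAB zinc finger factors had a median of 31.5 TPM, and 4 of 6 were detected, beside 59.0% of all protein-coding genes. Trim28, the corepressor that KRAB proteins recruit, had 417 and 338 TPM. Zfp57, which keeps methylation at imprinted loci, had 53.3 and 33.4 TPM. Zfp445, known for the same role, had 31.7 and 7.40 TPM, from 1771 and 477 counts, and was the member of these lists furthest apart between libraries. Ctcf, an insulator protein that methylation keeps off DNA, had 105 and 51.2 TPM and was also at least 2-fold apart. Ctcfl, its germline relative, had 0.07 and 0.06 TPM, and Dppa3, which keeps UHRF1 from maintaining methylation in mouse oocytes, had 0 counts in both libraries.

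Among the TET genes, Tet3 had the highest level and Tet2 the lowest. Tet3 (chr6:83362373-83459084) had 35.2 and 37.5 TPM in replicates 1 and 2, from 4142 and 3850 counts. Tet1 (chr10:62804570-62908996) had 22.03 and 17.0 TPM, from 2295 and 2019 counts. Tet2 (chr3:133463679-133545139) had 7.43 and 5.92 TPM, from 1316 and 1211 counts. Levels of the 3 genes did not overlap between libraries, and Tet3 stood 4.74-fold and 6.34-fold above Tet2.

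The order of Tet1 and Tet2 also rested on which transcripts were summed. Tet1-206, the complete form of 14369 nt and 2039 codons with the CXXC stretch, had 6.87 and 5.05 TPM in replicates 1 and 2, or 31.2% and 29.7% of the gene, but 83.3% and 80.4% of its counts. The non-coding Tet1-202 of 1505 nt had 11.4 and 5.90 TPM from 314 and 187 counts, and the incomplete Tet1-205 of 1197 nt had 2.81 and 4.43 TPM. On complete coding transcripts alone, a summary chosen after the values were seen, Tet1 had 6.87 and 5.32 TPM and Tet2 had 7.43 and 5.92 TPM, so that the genes overlapped. Tet2 has a single tabled transcript of 9179 nt and is the same on both measures.

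Tet1 transcripts with the CXXC stretch made up 31.2% and 31.3% of the gene by TPM (31.2 ± 0.0904%, SD, n = 2) and 83.3% and 84.6% by counts. Every complete coding Tet1 transcript in the tables holds this stretch, so the remainder is non-coding or incomplete. RefSeq gives Tet1 a start that matches no tabled transcript, and forms from that start were not analysed here.

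Tet3 divided otherwise. Tet3-202, the complete form without the CXXC stretch (1668 codons), had 14.7 and 9.84 TPM in replicates 1 and 2. Tet3-203, the form with it (1803 codons), begins 14717 nt upstream and had 6.10 and 6.46 TPM, or 17.3% and 17.2% of the gene (17.3 ± 0.0795%, SD, n = 2). Of complete coding Tet3, 29.4% and 39.6% carried the stretch. Tet3-203 has 835 nt found in no other Tet3 transcript, and the tables placed 696 and 851 counts on it.

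The annotation limits this split. Tet3-203 ends at its stop codon, while Tet3-202 runs on and holds 5669 nt that no other Tet3 transcript has, so reads beyond the stop codon could be placed on Tet3-202 only. The short incomplete Tet3-204 (469 nt) had 8.22 and 12.0 TPM from 59.3 and 99.7 counts, and the non-coding Tet3-201 had 6.20 and 9.24 TPM. Together these fragments were 41.0% and 56.5% of Tet3 by TPM but 8.52% and 15.7% by counts. Complete coding Tet3 was 20.8 and 16.3 TPM, which remained above complete coding Tet1 and above Tet2 in both libraries.

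Summed over Dnmt1, Dnmt3a and Dnmt3b, methyltransferases had 136 and 90.9 TPM in replicates 1 and 2, and the 3 TET genes had 64.7 and 60.4 TPM. The ratio was 2.11 and 1.5 (1.81 ± 0.428, SD, n = 2). On complete coding transcripts it was 3.42 and 2.87 (3.15 ± 0.386). Methyltransferase RNA was the larger sum in both libraries and on both measures, while the size of the ratio depended on how short Tet1 and Tet3 transcripts were treated.

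Genes that act with or after the TET enzymes were mostly present. TET partners and genes of 2-oxoglutarate supply had a median of 61.4 TPM, and 13 of 14 were detected. The isocitrate dehydrogenase Idh2, which makes 2-oxoglutarate in mitochondria, had 519 and 413 TPM, and the subunit Idh3g had 195 and 166 TPM. Ogt, the glycosyltransferase that TET proteins bind, had 175 and 127 TPM, and the subunit Idh3b had 145 and 135 TPM. Ogdh, which consumes 2-oxoglutarate, had 84.4 and 35.0 TPM and was at least 2-fold apart between libraries. D2hgdh, which removes 2-hydroxyglutarate, had 10.3 and 8.08 TPM, and Sall4 was below the floor at 0.51 and 0.12 TPM.

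In excision repair of oxidised cytosine the median was 24.4 TPM and 13 of 14 genes were detected. Tdg, the glycosylase that removes the oxidised bases, had 145 and 73.8 TPM. The endonuclease Apex1 had 283 and 320 TPM, Parp1 had 130 and 83.5 TPM, and the scaffold Xrcc1 had 76.2 and 59.0 TPM. The glycosylases Neil1 (5.49 and 5.63 TPM) and Neil2 (0.34 and 0.41 TPM) were lowest. Among cytidine deaminases, Apobec3 had 31.7 and 25.5 TPM.

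Of 13 genes of the methyl donor cycle 9 were detected, beside 59.0% of all protein-coding genes, and their list had a median of 10.8 TPM. Whether that share differs from the background was not tested. Mat2a, which makes S-adenosylmethionine, had 319 and 209 TPM, and its regulatory subunit Mat2b had 81.6 and 71.0 TPM. Ahcy, which clears the product S-adenosylhomocysteine, had 79.0 and 58.4 TPM, and its relative Ahcyl1 had 94.8 and 55.6 TPM. Mtr, the methionine synthase, had 11.3 and 4.2 TPM and was at least 2-fold apart between libraries. Bhmt and Mat1a, known as liver enzymes of this cycle, were near 0, with 4 and 5 counts and with 1 and 0 counts.

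Genes of the families that hold the readers of cytosine methylation were detected in 10 of 10 cases, with a median of 14.2 TPM. They were listed by family, and binding of each protein to methylated CpG was not measured here. Mbd3, a subunit of the NuRD complex, had 196 and 202 TPM, well above the next, Mbd1 at 25.4 and 13.8 TPM and Mbd2 at 13.8 and 24.8 TPM. Mbd5 had 19.3 and 14.2 TPM, and the zinc finger readers Zbtb33 (6.24 and 5.00 TPM) and Zbtb4 (1.58 and 1.68 TPM) were lowest. Proteins with a CXXC finger other than TET and DNMT1, which bind unmethylated CpG, were detected in 8 of 8 cases, with a median of 21.8 TPM. Cxxc5 had 95.01 and 77.1 TPM and Kdm2b had 83.9 and 47.6 TPM. Kdm2a (42.26 and 24.99 TPM) and Cxxc1 (31.0 and 35.6 TPM) came next. Cxxc4, the gene split from Tet2 in evolution, had 4.84 and 4.65 TPM, and Fbxl19 had 3.45 and 5.75 TPM.

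**Figure D3:**
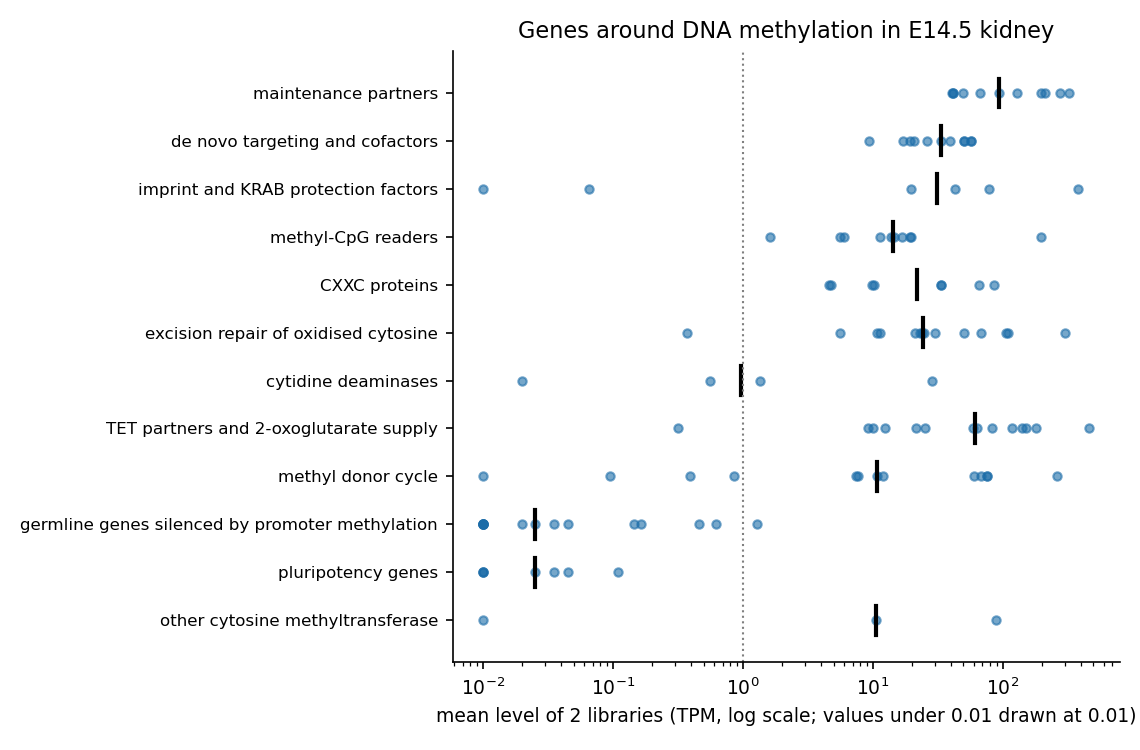
Each point is 1 gene at its mean level over 2 libraries in TPM on a log scale, and each black bar is the median of the list named on the left. Lists of cofactors lie mainly right of the dotted floor at 1 TPM, whereas 14 of 15 germline genes and 7 of 7 pluripotency genes did not reach it in both libraries.

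Genes whose promoters are known to be methylated and silent outside the germ line were largely at the floor. Of 15 such genes 1 was detected in both libraries, against 59.0% of all protein-coding genes, and 6 had 0 counts in both. The one above the floor was Brdt, a bromodomain protein of the testis, at 1.08 and 1.48 TPM from 56 and 74 counts. Tdrd1 had 1.00 and 0.24 TPM from 93 and 26 counts, and Ddx4, a germ cell helicase, had 0.69 and 0.23 TPM. Slc25a31 had 0.30 and 0.03 TPM, and Hormad1 and Mov10l1 had 0 counts. Of 7 pluripotency genes none was detected: Esrrb was highest at 0.11 TPM in both libraries, Nanog had 0 and 4 counts, and Dppa2 and Tdgf1 had 0. Among other cytosine methyltransferases, the RNA enzymes Nsun2 (112 and 66.4 TPM) and Trdmt1 (9.60 and 11.6 TPM) were present.

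Levels of the 8 genes in the replicates have to be read against a difference that ran through both tables. Of 10696 protein-coding genes with 5 TPM or more in the higher library, 77.0% had the higher TPM in replicate 1, and the median log2((TPM + 1) ratio) of replicate 1 over replicate 2 was 0.31. That median was 0.03 on counts scaled by edgeR's TMM factors, 0.05 by DESeq2's size factors and 0.09 in FPKM. It also followed length, at -0.19 for 996 genes shorter than 1000 nt, 0.10 from 1000 to 2000 nt, 0.63 from 4000 to 6000 nt, 0.57 from 6000 to 8000 nt and 0.53 for the 156 genes of 8000 nt or more. On this background 6 of the 8 genes were higher in replicate 1 by TPM. By expected counts scaled to the gene total 7 of the 8 were, as were 58.9% of the 10696 genes.

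None of the 8 genes was at least 2-fold apart, a size that 4.22% of those 10696 genes reached with the higher level in replicate 1 and 0.467% with the higher level in replicate 2. At 1.5-fold, Dnmt3a and Dnmt3b passed, both higher in replicate 1, as did 25.3% of all those genes in that direction. The log2((TPM + 1) ratio) was 0.53 for Dnmt1 and Uhrf1, 0.59 for Dnmt3a and 0.62 for Dnmt3b, within 0.10 of the median for genes of like length in each case. It was 0.36 for Tet1 and 0.28 for Tet2, which is 0.27 and 0.24 below the median of their length range. Tet3 had -0.09, or 0.72 below. Its direction was not settled by these data, because it was 0.02 on DESeq2's size factors, 0.33 on complete coding transcripts, -0.31 in FPKM and -0.0030 by TMM.

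By CPM, the expected counts scaled to the gene total of a library, with an exact 95% interval that covers counting error only, replicate 1 was 1.23-fold (1.18 to 1.28) replicate 2 for Dnmt1, 1.23-fold (1.19 to 1.27) for Uhrf1, 1.19-fold (1.15 to 1.23) for Dnmt3a and 1.28-fold (1.17 to 1.40) for Dnmt3b. For the TET genes it was 1.11-fold (1.05 to 1.18) for Tet1, 1.06-fold (0.981 to 1.15) for Tet2 and 1.05-fold (1.01 to 1.10) for Tet3. The interval of Tet2 held equality. With 1 embryo per library, a difference between embryos and one between preparations cannot be told apart.

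**Figure D4:**
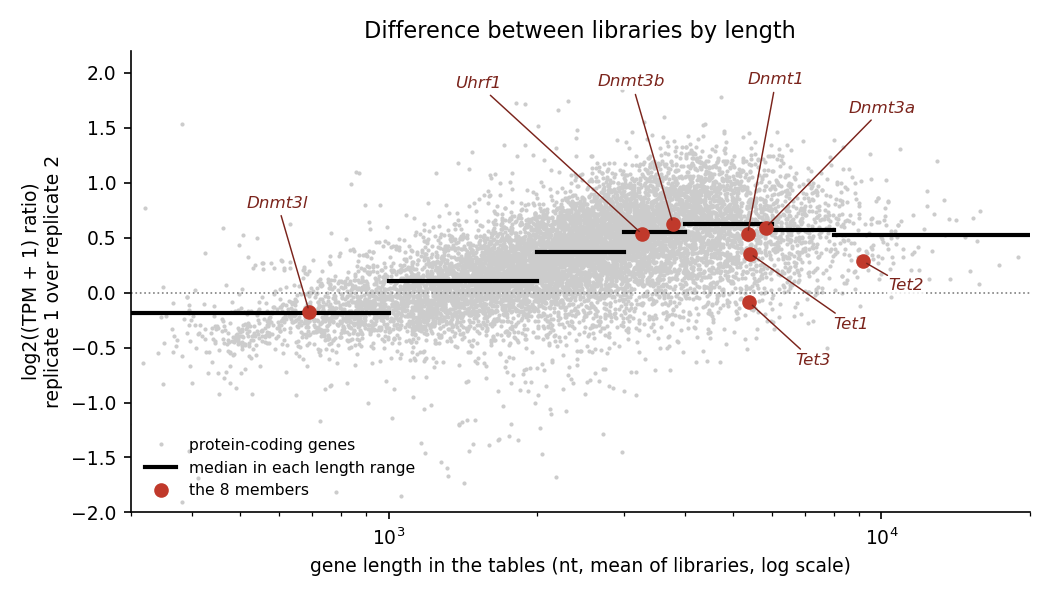
The log2((TPM + 1) ratio) of replicate 1 over replicate 2 against gene length in nt on a log scale, for protein-coding genes with 5 TPM or more in the higher library (grey, 22 of 10696 outside the axes), with medians by length range (black bars) and the 8 genes (red). Dnmt1, Dnmt3a, Dnmt3b and Uhrf1 lie near the bars. Tet3 lies 0.72 below its bar in TPM, with a direction against 0 that changed with the scale. Dnmt3l, at 0.32 and 0.49 TPM, is under the 5 TPM of the genes behind the bars. The added 1 TPM also draws its ratio toward 0, so its place against the bars is not informative.

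Of the 157 genes in the lists around the 8, 117 reached 5 TPM in either library, and 7 were at least 2-fold apart, all higher in replicate 1: Cdca7l, Setd2, Zfp445, Ctcf, Ogdh, Mtr and the endothelial receptor Kdr (30.9 and 13.7 TPM). That is 5.98% of the 117, beside 4.22% of all protein-coding genes in that direction. Antisense and copied loci had few counts: Dnmt3aos, antisense to Dnmt3a, had 2 and 1 counts, Dnmt3bos had 7 and 7, and the processed copies Dnmt3l-ps1 and Dnmt3a-ps1 had 6 and 2 and 0 and 0. The counts of Dnmt3l-ps1 are of the same size as the 4 and 6 of Dnmt3l itself. The sources used here do not say whether strand entered the counting. Without strand, reads of a gene and of its antisense RNA cannot be told apart where the 2 overlap. Dnmt3l-ps1 lies on chromosome 2 and Dnmt3l on chromosome 10, so that limit does not bear on them.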

How the data were processed

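Per the labels, total RNA of 2 kidney samples was sequenced; the submitters quantified reads on mm10 with annotation M4, per the deposited notes. The aligner and counting tool remain not given in the sources used here. Per the file headers, the authors deposited, for genes and transcripts, expected counts (estimated reads, shared out where they match several features), TPM values (maximum likelihood and posterior mean), FPKM values, bounds of a credibility interval of TPM as a signal on that scale, and the isoform percent (share of a gene's TPM). Length and effective length in nt, a score per feature, are deposited too.

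The 69691 features held 43346 genes, 97 spike-in or phiX sequences and 26248 entries named by a number, which were left out; 42462 gene IDs matched a GENCODE M21 symbol and 884 did not. Transcript structures came from M21 on GRCm38, the assembly of mm10, and 56 of 59 transcripts of the 8 genes had the same length there. Coordinates are 1-based. RefSeq promoters were found for 8 of 8 genes. A form was set by first exon or by exons held; incomplete or non-coding transcripts were kept apart.

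Detection was 1 TPM in both libraries. Genes apart between libraries had 2-fold or more in (TPM + 1) with at least 5 TPM in either library, and the added 1 makes differences of low genes look smaller than they are. TMM factors (edgeR 4.0.16) and DESeq2 1.42.0 size factors, in R 4.3.3, were computed on expected counts rounded to whole numbers. No gene was tested, since 2 libraries of 1 group allow none. Exact intervals (95%) and the limit of 3 counts cover counting error only. Scripts were tested on simulated data, in Python 3.11.15 with pandas 2.3.3, numpy 2.4.6 and scipy 1.17.1, and plots were drawn with matplotlib 3.10.9.

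The 8 genes and 16 lists of 157 genes were chosen with earlier results of these data known; all 157 matched, Oga as Mgea5. Named were the 8 genes, the top 4 and bottom 2 genes of every list by mean TPM, list members apart between libraries, and transcripts with 10% or more of their gene in either library; other transcripts are named where a form is described, and genes of the marker and proliferation lists are given in part. 1 gene of the lists is not reported here. Alternatives covered floors, pseudocounts, units, scaling, estimates, left-out replicates and transcripts counted.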

Additional observations from a re-analysis of the deposited data

How the results depend on the processing

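Depth limits Dnmt3l, at 4 and 6 counts, and shares of forms without bases of their own. Complete coding transcripts and shares of counts were alternatives chosen after seeing the data. With a fold of 1.5 in place of 2, 2 of the 8 genes (Dnmt3a and Dnmt3b) were apart between libraries in place of 0, beside 25.3% of all protein-coding genes with the higher level in replicate 1. By posterior mean TPM 8 of the 8 genes were detected in place of 7, since Dnmt3l passed the floor. Part of its level on that estimate lay on transcripts with 0 counts. The ratio of summed DNMT to summed TET levels was 3.15 on complete coding transcripts, against 1.81 on all. The share of the short Dnmt3a form was 31.0% by posterior mean, 38.4% of coding transcripts and 24.7% of counts, against 33.5%. The share of Tet1 with the CXXC stretch was 30.2% by posterior mean and 84.0% of counts, against 31.2%, and that of Tet3 was 19.5% of counts, against 17.3%. For these shifts the cause was not tested, beyond the dependence of TPM on transcript length. Of the alternative values for these summaries 30 stayed close to the value reported, the count of 8 detected genes among them, and 8 moved, and for levels of single genes 34 stayed and 6 moved. The direction of Tet3 between libraries changed with the scale, as given with its values. No paired analysis was possible because there is 1 group.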
